A study of Brassica oleracea with 107 samples.

Results

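The genes described here are 150 endosperm genes of Brassica oleracea (cabbage, kale and broccoli are among its forms) whose transcripts were more abundant at 26 °C than at 16 °C on day 22 and less abundant at 26 °C than at 16 °C at hour 72. They were taken from the 16338 genes of the authors' endosperm table, which with the embryo table lists 19732 genes in all. Only the 6612 genes that the embryo table does not list were considered. Of these, 4140 met 3 further conditions: a difference under 2 log2 units from day 7 up to day 22 at 16 °C, a difference between -2 and 2 log2 units from hour 1 to hour 72 at 16 °C, and 1 TPM or more at 16 °C on day 7, 15, 18 or 22. These 4140 are called the eligible genes below. Each was ranked by the smaller of its excess at 26 °C on day 22 and its deficit at 26 °C at hour 72, and the first 150 were kept as members. The members were thus chosen by measured values of these samples, their TPM on day 22 and at hour 72.

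The plants were grown at 21 °C until bolting and then at 16 °C until the embryo had reached the bent-cotyledon stage, and from there they stayed at 16 °C or were kept at 26 °C. All groups share this history. In the recovery groups of days 18 and 22, plants were moved from 26 °C back to 16 °C, on a day that the labels do not give. The dissected fraction called endosperm includes the seed coat, so the 2 tissues cannot be told apart, nor can fewer cells of a type be told apart from less RNA per cell. The 21 endosperm groups are day 0 at 16 °C, days 1, 3, 7, 15, 18 and 22 at 16 °C and at 26 °C, the 2 recovery groups, and hours 1, 24 and 72 at 16 °C and at 26 °C. What starts the count of hours or of days is not stated in the labels. Each group has 3 libraries, except 16 °C on day 18, which has 2. The labels name no cultivar and no number of plants per library.

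In seeds of the cabbage family the endosperm is a thin living layer that lies between the embryo and the seed coat. During maturation it stores transcripts, some of which are still present in the dry seed and are lost or replaced as the seed takes up water and germinates. Together with the seed coat it can hold the embryo back, and warmth during maturation is known to alter how strongly seeds of many plants are held in dormancy. The title of the series names both seed development and germination.

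Values are the authors' TPM (transcripts per 1000000, a length-corrected abundance that sums to 1000000 over all genes), with 1 value per group. There are no replicate values, so no SD, no n and no test can be given, and the depth behind the values is unknown. A gene is counted as higher or lower when its log2(TPM + 1) differs by 1 or more between 2 columns, called 2-fold below, a scale which understates differences between low values. Neither the tables nor the reference gene table pair the identifiers with names: none of the 150 matched among 53125 reference genes. The members are therefore given by identifier and without a function. Where near-identical copies of a gene exist, the counting could split reads between them.

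Library kit and time change together. Days 7, 15, 18 and 22 were made with the Ovation system and days 0 to 3 and the hour series with a standard Illumina protocol, so levels are compared only within these 3 sets unless said otherwise. The day 18 columns stand out. Over all 16338 listed genes, recovery lay farther from 16 °C, at a root-mean-square distance of 1.48 log2 units, than 26 °C did, at 0.95. The recovery column of day 18 was also the closer of the pair to day 22 at 26 °C, at 0.79 against 1.23. Day 18 results are given for both columns.

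The ranking contrasts are a description of how the members were chosen. On day 22, 135 members were at least 2-fold higher at 26 °C, where 16.9% of the eligible genes and 23.1% of all listed genes were, and 0 were lower, where 16.3% and 17.3% were. At hour 72, 133 members were at least 2-fold lower at 26 °C, where 9.59% of the eligible genes and 10.6% of all listed genes were, and 0 were higher, where 10.6% and 17.8% were. The 119 members that passed 2-fold in both are all the eligible genes that did so, another 16 passed on day 22 alone, 14 at hour 72 alone and 1 in neither. Among the eligible genes, 80 had the reverse pattern, 39 were higher at 26 °C both times and 17 were lower both times. The rank value ranged from 3.0 for Bo6g081110 to 0.90 for the last member. Bo5g133430 and Bo1g046650 were the last inside, at 0.91 and 0.90, and Bo1g007600 and Bo4g182060, both at 0.90, were the first outside.

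**Figure D1:**
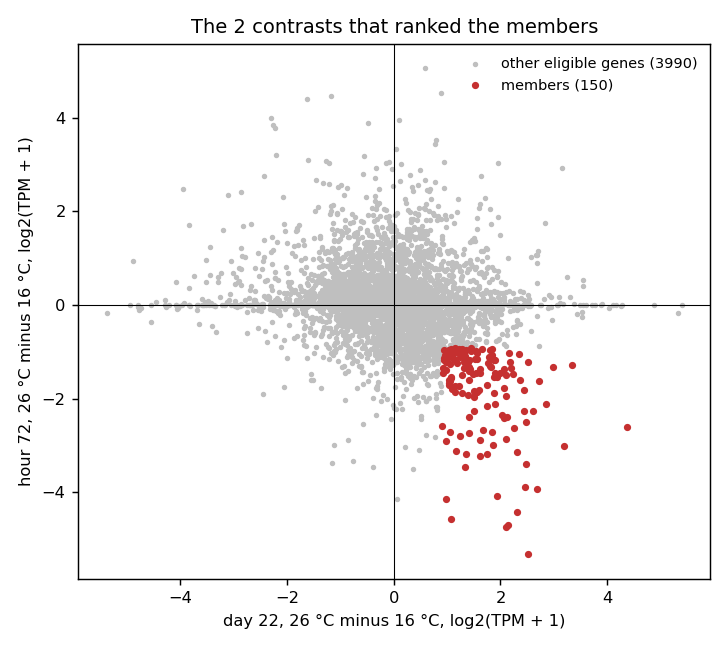
Temperature difference on day 22 (x axis) and at hour 72 (y axis), both as 26 °C minus 16 °C in log2(TPM + 1), with 1 point per eligible gene. The 150 members, in red, occupy the lower right because these differences chose them; the remaining eligible genes, in grey, spread over all 4 directions.

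The choice also set aside genes that the embryo table lists. Of 6039 such genes that met the other conditions, 388 had a rank value at or above the lowest member's. The pattern of day 22 and hour 72 was therefore not limited to genes absent from the embryo table. Absence from that table need not mean absence from the embryo, since its rule for listing genes is unstated.

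The 4 members with the highest rank value show what the choice picked out and how far the members differ in level. Bo6g081110 was at 9.72, 11.8 and 11.6 TPM at 16 °C on days 0, 1 and 3, and at 17.5 and 21.1 TPM at 26 °C on days 1 and 3. On days 7, 15, 18 and 22 it was at 8.74, 6.73, 13.6 and 10.7 TPM at 16 °C and at 7.19, 16.3, 40.4 and 106 TPM at 26 °C, with 149 and 93.5 TPM in recovery on days 18 and 22. In the hour series it was at 600.1, 129.9 and 217 TPM at 16 °C and at 998, 65.2 and 26.2 TPM at 26 °C. Its 26 °C values were thus above 16 °C on days 1 and 3, slightly below on day 7 and above again from day 15. In the hour series 26 °C was the higher temperature at hour 1 and the lower at hours 24 and 72.

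Bo1g039730 was the most abundant member in any column. It was at 360.3, 254 and 259 TPM at 16 °C on days 0, 1 and 3, and at 178 and 159 TPM at 26 °C on days 1 and 3. From day 7 to day 22 it was at 306, 560.4, 927 and 1038 TPM at 16 °C and at 356, 1245, 2118 and 5964 TPM at 26 °C, and recovery was at 4242 and 4912 TPM. At hours 1, 24 and 72 it was at 1869.6, 890.3 and 2174 TPM at 16 °C and at 1993, 232 and 53.3 TPM at 26 °C. The temperatures were close at hour 1 and far apart at hour 72, when the 26 °C value was the lowest of all 21 columns, across kits. This gene alone held 31.8% of the summed TPM of the 150 members on day 22 at 26 °C, 18.7% on day 22 at 16 °C and 14.3% at hour 72 at 16 °C.

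Bo9g107080 and Bo03358s010 were under 1 TPM on days 0 to 3. On days 0 to 3 Bo9g107080 never exceeded 0.285 TPM. It was at 0.276, 0.759, 0.376 and 1.49 TPM at 16 °C on days 7, 15, 18 and 22, at 0.389, 3.61, 4.19 and 15 TPM at 26 °C, and in recovery at 5.78 and 10.4 TPM. Its hour values were 20.2, 59.2 and 57.2 TPM at 16 °C and 28.3, 27.2 and 2.85 TPM at 26 °C. For this gene both temperatures were higher at hour 1 than on any day, a comparison partly across kits.

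Bo03358s010 was at 0.194 TPM or less on days 0 to 3. It was at 1.32, 1.16, 0.558 and 5.80 TPM at 16 °C from day 7 to day 22, at 1.12, 5.45, 17.1 and 139 TPM at 26 °C, and at 99.4 and 78.3 TPM in recovery. Its hour values were 111, 139.9 and 76.1 TPM at 16 °C and 99.7, 192 and 11.7 TPM at 26 °C. Unlike the other 3 it was higher at 26 °C than at 16 °C at hour 24. At hour 1 the 26 °C value was slightly the lower, and at hour 72 it was far the lower.

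**Figure D2:**
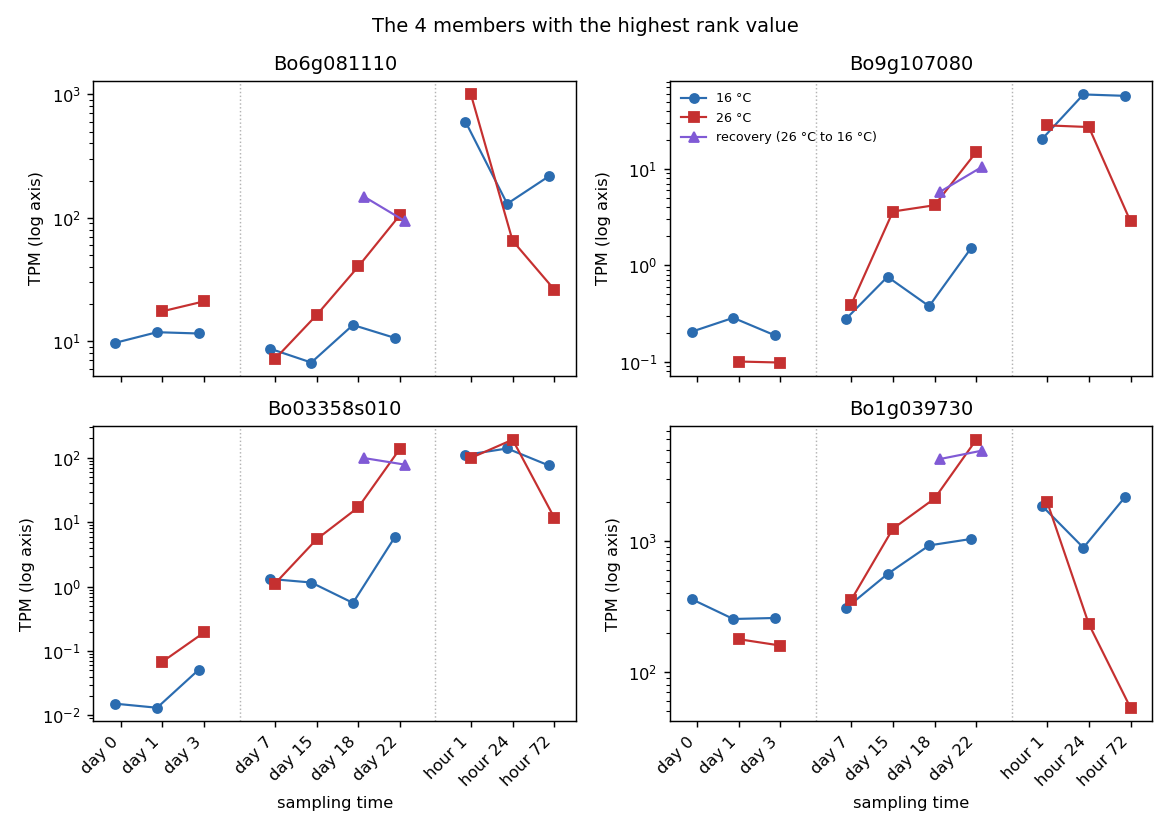
TPM on a log axis for the 4 members with the highest rank value in every endosperm column; blue circles are 16 °C, red squares 26 °C and purple triangles recovery, times are evenly spaced, and dotted lines part the 3 sets of columns. On day 22 the 26 °C points lie above 16 °C, at 106 against 10.7 TPM for Bo6g081110, and at hour 72 they lie below, at 26.2 against 217 TPM.

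As a group the members were moderately expressed. In a comparison partly across kits, they had a higher median in the hour series than on any day at 16 °C. The exception was hour 72 at 26 °C, where it was 7.48 TPM. Their median was 8.80 TPM on day 0, between 7.89 and 9.50 TPM in the other columns of days 0 to 3, and between 5.72 and 6.49 TPM at 16 °C on days 7 to 22. It was 20.1 TPM on day 22 at 26 °C, 16.8 TPM in recovery on day 22 and 39.8 TPM at hour 1 at 16 °C. In all, 55 members reached 100 TPM in some column and 6 reached 1000 TPM. Neither count was made over the eligible or all listed genes, so whether it is usual cannot be told. At hour 1 at 16 °C, 132 members (88%) were above every column of days 0 to 3, which share its kit, as were 32.1% of the eligible and 34.6% of all listed genes. Across kits, 90 members (60%) were above every day column, as were 23.5% and 23.0%. The ranking favoured a high value at hour 72 at 16 °C, and the rule tied that value to hour 1, so a high level at hour 1 was partly set by the choice.

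The summed TPM of the 150 members, which rests on the most abundant of them, did not always move with the median: on days 1 and 3 it was lower at 26 °C than at 16 °C, while the median was higher. The sum was 0.55% of 1000000 TPM on day 22 at 16 °C, 1.87% on day 22 at 26 °C and 2.04% at hour 1 at 16 °C. At hour 72 it was 1.52% at 16 °C and 0.35% at 26 °C, the lowest of the 21 columns, across kits. The day 22 and hour 72 pairs are both ranking contrasts and are a description.

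**Figure D3:**
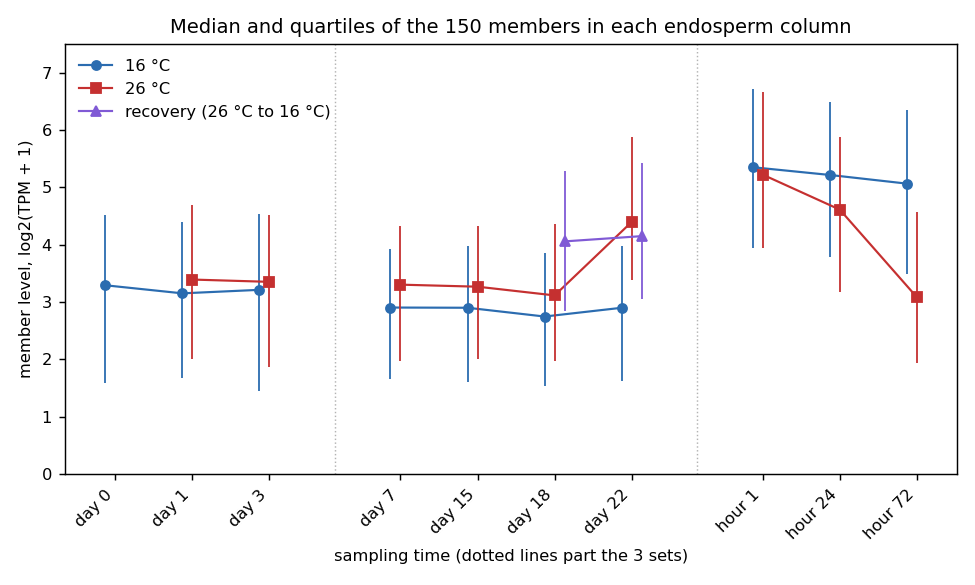
Median (points) and quartiles (vertical lines) of log2(TPM + 1) over the 150 members in each endosperm column, by temperature and sampling time, with times evenly spaced and dotted lines between the 3 sets. The medians of both temperatures lie near 3 on days 1 to 15, part on day 22 and, from a shared level above 5 at hour 1, part the other way by hour 72.

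On days 1 and 3 most members were within 2-fold. On day 1, 5 members were higher at 26 °C and 1 was lower, where 2.9% of the eligible and 5.74% of all listed genes were higher and 2.51% and 2.14% lower. On day 3, 4 were higher and 2 lower, where 3.86% and 7.55% were higher and 3.74% and 2.85% lower. The median difference was 0.17 log2 units on day 1 and 0.08 on day 3, against 0.06 and 0.08 over the eligible genes. The members' shares of 3.33% and 2.67% were close to the background of the eligible genes. With each column centred on its median, the day 3 median changed sign, to -0.13, and the split became 3 higher and 7 lower, with 2.42% of the eligible genes higher and 5.85% lower. On day 1 that scaling gave 4 higher and 2 lower, and rescaling without the 10 genes of highest TPM also gave 4 and 2, with 1.74% of the eligible genes higher and 3.55% lower under the first and 2.22% and 3.09% under the second. On day 3 the rescaled split was 4 and 4, with 3.65% and 4.47% of the eligible genes.

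A few members did differ early. At 26 °C Bo8g114550 had 10.3 and 8.64 TPM on days 1 and 3, against 2.30 and 2.57 TPM at 16 °C. It was higher at 26 °C at every later day and at hour 1, and by hour 72 it had 1.34 TPM at 26 °C against 3.66 TPM. Bo6g079550 was at 15.6 against 5.61 TPM on day 1 and at 16.7 against 5.50 TPM on day 3. Bo3g060230 was the member lower on day 1, with 34.6 TPM at 26 °C against 72.7 TPM. These members show that the day 22 excess was preceded by early differences of either sign.

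Bo5g098850 kept a deficit at 26 °C through most of the day series. On days 3, 7, 15 and 18 it was at 2.13, 1.40, 0.693 and 0.177 TPM at 26 °C, against 9.78, 6.30, 3.14 and 1.77 TPM. Day 22 was the exception, at 4.06 TPM against 1.28 TPM. Bo9g031100 was lower on day 3, at 4.37 against 11.8 TPM, and on day 18, at 5.17 against 13.0 TPM, with near-equal values of 12.4 and 12.3 TPM on day 7. In both genes the sign of the temperature difference turned within the Ovation set.

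By days 7 and 15 more members were higher than lower at 26 °C, though most were still within 2-fold. On day 7, 14 were higher and 1 lower, where 6.18% of the eligible and 9.79% of all listed genes were higher and 5.8% and 3.34% lower. The member share of 9.33% was below that of all listed genes. It was 3.33% with median centring, with 5 higher and 4 lower, where 3.45% of the eligible genes were higher and 9.61% lower. Rescaled, it was 5.33%, with 8 members higher and 2 lower, where 4.76% and 8.65% were. On day 15, 26 members (17.3%) were higher and 4 lower, where 9.18% of the eligible genes were higher and 9.42% lower, and 10.7% and 7.99% of all listed genes were. Median centring made the day 15 split 18 (12%) and 4, where 7.44% of the eligible genes were higher and 11.6% lower. Rescaling made it 30 and 4, where 10.6% and 10.8% were. The median member difference was 0.30 on day 7 and 0.35 on day 15, against 0.11 and -0.04 over the eligible genes.

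The leading members of day 15 were already well above 16 °C. On day 15 Bo3g012050 had 14.3 TPM at 26 °C against 2.43 TPM, after 8.68 and 2.41 TPM on day 7. Bo6g087980 was at 307 against 75.4 TPM on day 15, after 47.5 and 28.6 TPM on day 7. Of the 14 members higher on day 7, 7 were also higher on day 15, which is 50% of the first list and 26.9% of the second. Of all members, 17.3% were higher on day 15, and the overlap was not counted over the eligible genes. The member difference of day 15 was of the size seen in genes that share only the day 22 excess. Of 564 such eligible genes that are not members, 17.9% were higher on day 15, with a median of 0.28, and 59.8% were higher in the recovery column of day 18.

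On day 18 the 2 columns of warmed plants gave different pictures. In the column labelled 26 °C, 22 members (14.7%) were higher than at 16 °C and 4 lower, where 8.16% of the eligible and 10.3% of all listed genes were higher and 12.4% and 10.8% lower. In the column labelled recovery, 91 members (60.7%) were higher and 3 lower, where 19.5% and 24.4% were higher and 17.7% and 15.7% lower. Median centring made the recovery split 63 (42%) and 4, where 13.6% of the eligible genes were higher and 26.4% lower. Rescaling made it 72 (48%) and 4, where 16.2% and 26.2% were. As deposited, the median difference from 16 °C was 0.40 in the column labelled 26 °C and 1.18 in recovery, and both use the same 16 °C column. Set directly against each other, 59 members were higher in recovery and 4 lower, where 15.1% of the eligible genes and 19.8% of all listed genes were higher and 8.09% and 7.78% lower. Median centring reduced the members' split to 33 and 4 and turned that of the eligible genes to 8.55% higher and 13.9% lower. Rescaling gave 36 and 4 for the members and 11% and 15.9% for the eligible genes. The 564 eligible non-members with a day 22 excess behaved much like the members. In the column labelled 26 °C, 20.0% of them were higher than at 16 °C and 1.95% lower. Against that column, 45.4% of them were higher in recovery and 3.01% lower, as deposited, where 39.3% and 2.67% of the members were.

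All 26 members that were higher at 26 °C on day 15 were higher in the recovery column of day 18, while 15 of them, or 57.7%, were higher in the column labelled 26 °C. Of all 150 members, 60.7% were higher in the first of these columns and 14.7% in the second. The overlaps were not counted over the eligible genes. Whether the 2 columns carry each other's label was not tested here. In recovery Bo03358s010 had 99.4 TPM, against 17.1 at 26 °C and 0.558 at 16 °C. Bo7g095310 was at 23.6, 6.13 and 0.761 TPM in the same order. For Bo3g021680 the values were 18.8, 0.349 and 1.04 TPM, a difference between the 2 warmed columns of 3.87 log2 units. Each of these genes was highest in recovery.

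On day 18 other members differed in which column was lowest. Bo2g002630 was lowest in recovery, at 1.45 TPM, with 7.58 at 26 °C and 6.09 at 16 °C. Bo6g020930 was lowest at 26 °C, at 3.91 TPM, with 12.1 in recovery and 10.3 at 16 °C. Bo8g117280 was lowest at 16 °C, at 0.0654 TPM, with 5.04 at 26 °C and 12.2 in recovery. Of these genes, only Bo2g002630 was not highest in recovery.

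After the return to 16 °C the members were still near their 26 °C level on day 22, as were most eligible and listed genes. In recovery 148 members were within 2-fold of 26 °C, as were 3983 of the 4140 eligible and 15516 of the 16338 listed genes. In recovery, 94 members (62.7%) were at least 2-fold higher than at 16 °C and none was lower, where 13.8% of the eligible and 19.3% of all listed genes were higher and 14.2% and 15.2% lower. This comparison shares its 16 °C column with the ranking, so an excess was built in. Of the 564 eligible non-members with a day 22 excess, which was built in likewise, 71.6% were higher in recovery and none was lower. Against 26 °C, a column that also ranked the members, 1 member was higher in recovery and 1 lower, where 2.46% and 1.33% of the eligible genes and 3.07% and 1.96% of all listed genes were. The median difference between recovery and 26 °C was -0.29, and for the 564 non-member genes with a day 22 excess it was -0.18. The recovery value of 125 members lay between the 16 °C and the 26 °C value. This count was partly set by the choice, since both outer columns ranked the members. It was not made over the eligible genes.

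The exceptions on day 22 were few. Bo7g095310 was higher in recovery, at 30.5 TPM against 14.4 TPM at 26 °C and 1.52 TPM at 16 °C. Bo6g020930 was lower, at 13.4 TPM against 28.1 TPM at 26 °C and 8.53 TPM at 16 °C. Median centring and rescaling each took Bo6g020930 below 2-fold, leaving 1 higher and 0 lower, and with a pseudocount of 0.1 there were 1 and 7.

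**Figure D4:**
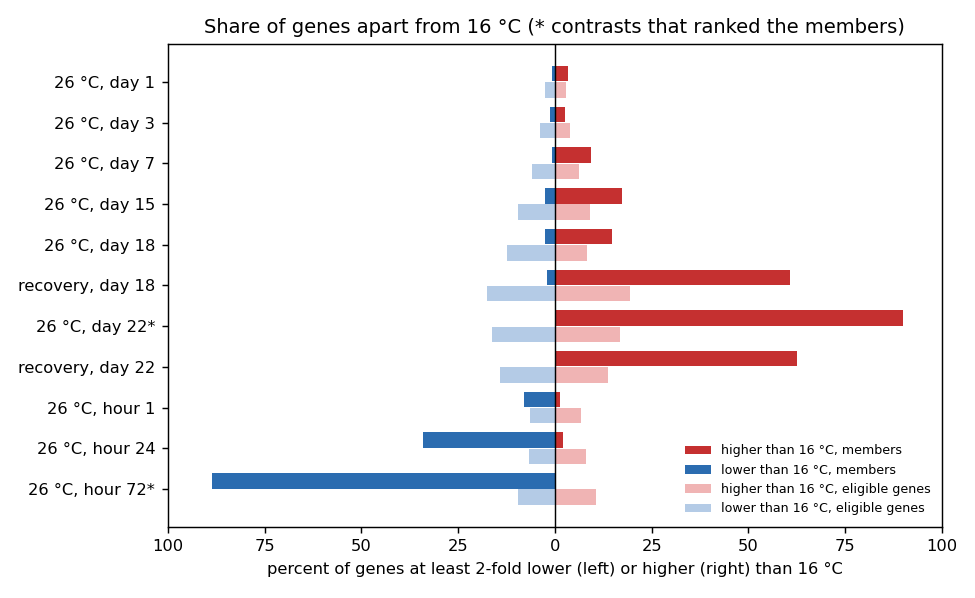
Percent of genes at least 2-fold lower (left) or higher (right) than 16 °C on the log2(TPM + 1) scale, for the 150 members (dark bars) and the 4140 eligible genes (pale bars), with the ranking contrasts starred; recovery on day 22, at 62.7%, shares its 16 °C column with the ranking. Among the contrasts that share no column with the ranking, their bars reach farthest to the right in recovery on day 18, at 60.7%, and farthest to the left at hour 24, at 34%.

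Few members changed by 2-fold between days at 16 °C, and more did at 26 °C. More of the eligible genes also changed at 26 °C than at 16 °C from day 7 to day 15, so this was not particular to the members. The rule limited the difference from day 7 to day 22 at 16 °C and favoured a low day 22 value there, so a flat course at 16 °C over days 7 to 22 was partly set by the choice. From day 0 to day 3 at 16 °C, 2 members were higher and 0 lower, where 1.4% of the eligible and 1.02% of all listed genes were higher and 0.266% and 0.502% lower. Bo4g187620 had 2.17 TPM on day 0 and 8.65 on day 3, and Bo7g097070 at 2.57 and 8.23 TPM. From day 7 to day 15 at 16 °C, 3 members were higher and 3 lower, where 1.16% of the eligible and 2.2% of all listed genes were higher and 8.7% and 5.04% lower. Median centring made this split 11 and 0, with 2.56% of the eligible genes higher and 5.07% lower, and rescaling made it 9 and 4, with 2.25% and 9.52%. Over the same step at 26 °C, 22 were higher and 10 lower, where 4.28% of the eligible and 5.48% of all listed genes were higher and 15.5% and 15.2% lower. Median centring made the 26 °C split 35 and 5, with 7.37% of the eligible genes higher and 8.33% lower.

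The 26 °C step to day 15 shows how mixed the members were. Bo6g087980 went from 47.5 to 307 TPM. Bo2g092520 was at 6.30 and 0.957 TPM, and Bo5g130250 at 31.8 and 7.89 TPM. The last step at 26 °C, from day 15 to day 22, put 99 members higher and none lower, where 12% of the eligible and 18% of all listed genes were higher and 17.5% and 18.4% lower. This step includes a column of the ranking.

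In the hour series the temperatures were close at hour 1. At that time 12 members (8%) were lower at 26 °C and 2 were higher, where 6.45% of the eligible and 7.19% of all listed genes were lower and 6.84% and 9.06% higher. The median member difference was -0.18. The share of members that were lower was near the background, and with median centring it was 15.3%, or 23 members, with 1 higher, where 10.2% of the eligible genes were lower and 3.04% higher. Rescaling gave 12 lower and 4 higher, where 6.50% and 7.71% were.

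Individual members were well apart at hour 1. Bo1g037450 had 3.53 TPM at 26 °C against 20.5 TPM. Bo5g098850 was at 22 and 71.7 TPM. Bo8g114550 was the higher at 26 °C, with 12.2 against 4.20 TPM, as was Bo4g195580, with 26.3 against 10.7 TPM. By hour 72 Bo4g195580 had 3.16 TPM at 26 °C against 10.6 TPM, so its difference changed sign within the series.

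By hour 24, in columns that took no part in the choice of members, the deficit at 26 °C was visible across the group. At that time 51 members (34%) were lower and 3 were higher, where 6.57% of the eligible and 5.75% of all listed genes were lower and 7.92% and 13.6% higher. In all, 131 of the 150 had the smaller value at 26 °C, as did 1810 of the 4140 eligible and 6062 of the 16338 listed genes. The median difference was -0.74 over the members and 0 over the eligible genes. With median centring 82 members (54.7%) were lower and 1 higher, and 14% of the eligible genes were lower. Of 264 eligible genes that share only the deficit at hour 72, 24.2% were lower at hour 24, with a median of -0.63. Members were more abundant at this time than the eligible genes, with medians of 36.2 and 6.60 TPM at 16 °C, and a 2-fold difference on this scale is harder to reach at low values.

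Bo6g125750 and Bo6g087980 led the deficit at hour 24. At hours 1, 24 and 72 Bo6g125750 was at 279, 58.2 and 12.5 TPM at 26 °C, against 240.4, 246 and 286 TPM. Bo6g087980 was at 1065, 164 and 32.3 TPM at 26 °C, against 1123, 681 and 861 TPM. In both genes 16 °C varied less than 2-fold over the hours while 26 °C was lower at each step. On day 22 Bo6g125750 had 96.8 TPM at 26 °C against 18.6 TPM, and Bo6g087980 had 377 against 85.0 TPM.

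Higher values at 26 °C at hour 24 were rare among the members. Bo2g041710 was at 25.4, 106 and 6.55 TPM over the 3 hours at 26 °C, against 31.5, 34.4 and 38.3 TPM. Bo7g064760 was at 14.1, 31.8 and 2.53 TPM, against 15.3, 12.3 and 7.33 TPM. In both genes 26 °C was slightly the lower at hour 1, the higher at hour 24 and the lower again at hour 72.

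For 106 members (70.7%) the difference between 26 °C and 16 °C became more negative at each step from hour 1 to 24 to 72, as it did for 20.0% of the eligible and 18.2% of all listed genes. The 26 °C value of hour 72 was the lowest of the 6 hour columns for 125 members (83.3%), and for 21.1% of the eligible and 21.4% of all listed genes. Both counts were largely built in, since a low value at 26 °C at hour 72 ranked the members, and they are a description. The highest hour value was at hour 24 at 16 °C for 43 members, at hour 1 at 16 °C for 41 and at hour 1 at 26 °C for 41. These counts were not made over the eligible genes. At hour 72 at 26 °C, 58 members were below their own value on day 22 at 16 °C, a comparison in which kit and time cannot be told apart. This was not counted over the eligible genes either, and both columns ranked the members.

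Within each temperature the hour course also differed. From hour 1 to hour 24 at 26 °C, 62 members were lower and 15 higher, where 9.64% of the eligible and 12.9% of all listed genes were lower and 20% and 22.2% higher. The same step at 16 °C put 29 lower and 20 higher, where 5.92% and 12.1% were lower and 17.4% and 17.6% higher. Median centring made the 26 °C split 80 lower and 9 higher, where 16.1% of the eligible genes were lower and 12.5% higher. It made the 16 °C split 39 lower and 15 higher, where 9.98% and 10.8% were. Bo3g024680 went from 131 to 7.35 TPM at 26 °C and from 149 to 28.4 TPM at 16 °C. Over hours 1, 24 and 72 Bo9g008340 was at 2120.0, 349 and 909 TPM at 16 °C and at 1636, 187 and 37.3 TPM at 26 °C. Both genes were lower at hour 24 than at hour 1 at either temperature.

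Some members instead were higher at hour 24 than at hour 1. Bo9g025770 went from 13.2 to 74.0 TPM at 16 °C and from 17.0 to 27.5 TPM at 26 °C. Bo6g121590 was at 0.536 and 6.11 TPM at 16 °C. Bo7g097070 was at 22.9 and 112 TPM at 26 °C, and Bo9g007910 at 0.548 and 11 TPM. All 4 were lower at 26 °C at hour 72 than at 16 °C, as the choice required, and Bo7g097070 was at 21.1 and 46.9 TPM.

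The day and hour sides of the pattern were compared in columns that did not rank the members. Of the 26 members higher at 26 °C on day 15, 13 were lower at 26 °C at hour 24, which is 50% of the first list and 25.5% of the second, while 34% of all members were lower. Another 86 members passed 2-fold in neither. The same overlap was not counted over the eligible genes, so whether it is usual cannot be told. Across the 150 members the day 15 and hour 24 differences had a Pearson's r of -0.16 and a Spearman's rho of -0.10. This is a description across genes that come from the same columns, with no p-value, and a weak one.

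**Figure D5:**
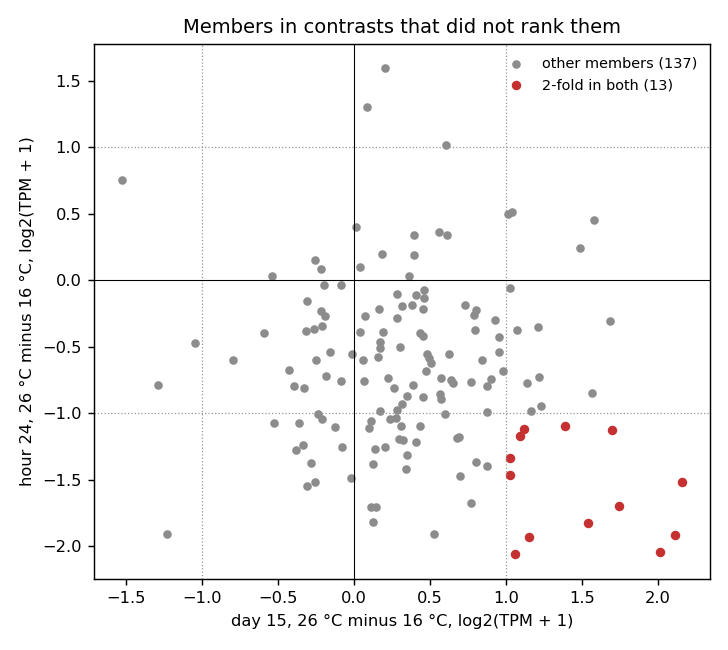
Difference between 26 °C and 16 °C on day 15 (x axis) and at hour 24 (y axis) in log2(TPM + 1), with 1 point per member and dotted lines at 2-fold. The 13 members past 2-fold in both, in red, lie at the lower right, and the cloud shows little slope, with r of -0.16.

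A small group of members was low on days 0 to 3. All 150 reached 1 TPM in some column of days 7 to 22 and of the hour series, but 17 (11.3%) stayed under 1 TPM in every column of days 0 to 3, as did 9.76% of the eligible and 22.9% of all listed genes. The share is near that of the eligible genes. In a column of the ranking these 17 had a median of 8.24 TPM on day 22 at 26 °C, with a range of 1.89 to 139 TPM. At hour 1 at 16 °C they had a median of 7.71 TPM and a range of 0.706 to 111 TPM. Kit and time change together between days 3 and 7.

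Whole columns were also compared, across kits. With all listed genes, day 22 at 26 °C lay 1.77 log2 units from hour 1 at 16 °C and day 22 at 16 °C lay 2.31 from it. Over the members alone the distances were 1.49 and 2.65, a description, since both day 22 columns ranked the members. The column of hour 72 at 26 °C lay 1.13 units from hour 72 at 16 °C over all listed genes and 2.01 over the members, the latter a ranking contrast. Leaving the members out moved none of the all-gene distances by more than the second decimal, with 1.77 and 2.30 for the first pair and 1.12 for the last.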

How the data were processed

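TPM values of the endosperm were used as the authors deposited them, with 1 column per group. How libraries were combined: not given in the sources used here. An embryo table served only to leave genes out. The submitters' processing notes name cutadapt 1.9.1 and STAR 2.5 along with featureCounts. Genome build, annotation and strand setting: not given in the sources used here. By what rule genes were listed is also unstated, though both lists carry the label DEG, commonly short for differentially expressed genes. All listed genes may therefore not be a neutral background, and a gene missing from the embryo list may still be expressed there. Listed endosperm genes sum to between 47.0% and 76.7% of 1000000 TPM. Values were transformed to log2(TPM + 1) and columns subtracted (Python 3.11.15, pandas 2.3.3). With 1 value per group neither limma nor another test could be run, so differences of at least 2-fold were counted beside the same count over the 4140 eligible and all 16338 listed genes. Other pseudocounts, scalings and list lengths were tried as alternatives. The scripts were tested on simulated data. Named genes are the first 4 and last 2 members, the first 2 outside, the 2 members farthest up and down in each contrast that did not rank them among those at 5 TPM or more, and the 2 most abundant. Members, rules and comparisons were chosen with earlier results of these data known.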

Additional observations from a re-analysis of the deposited data

How the results depend on the processing

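The 9 shares of members past 2-fold were recomputed under 7 alternatives each, and 53 of the 63 values lay within 1.5 times the reported share with the median difference of the same sign. With a pseudocount of 0.1 the shares that were higher at 26 °C became 5.33% on day 1, 7.33% on day 3 and 15.3% on day 7. Median centring gave 2% on day 3, where the sign of the median turned, 3.33% on day 7, 15.3% lower at hour 1 and 54.7% lower at hour 24. Rescaling without the 10 most abundant genes gave 5.33% on day 7. Among the first 75 members the share was 1.33% on day 3 and 26.7% on day 15. Median centring shifted the median difference of all genes by between -0.34 at hour 24 and 0.01 on day 18, and by -0.31 for recovery on day 18. Ranking with a pseudocount of 0.1 kept 120 of the 150 members. No paired analysis was possible because the tables hold 1 column per group, and for the same reason no replicate could be left out. Depth is unknown, so the precision of low values cannot be stated.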

Other observations

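The mirror image of the pattern was also looked at, after the values were seen, by ranking the same 4140 eligible genes the other way and keeping 150. Of these, 80 were at least 2-fold lower at 26 °C on day 22 and 2-fold higher at 26 °C at hour 72. In columns that did not rank them, 30 were lower and 9 higher at 26 °C on day 15, 68 lower and 6 higher in recovery on day 18, and 33 higher and 0 lower at 26 °C at hour 24. Of the eligible genes, 9.42% were lower and 9.18% higher on day 15, and 17.7% lower and 19.5% higher in recovery on day 18. At hour 24, 7.92% of them were higher and 6.57% lower. The 150 mirror genes had a median level of 7.36 TPM on day 22 at 16 °C, 1.56 TPM on day 22 at 26 °C, 0.34 TPM at hour 1 at 16 °C, 1.24 TPM at hour 72 at 16 °C and 7.11 TPM at hour 72 at 26 °C. The day 22 and hour 72 columns ranked these genes, and the rule ties hour 1 to hour 72 at 16 °C, so the low hour 1 level was partly set by the choice.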
